A study of Mus musculus with 2 samples.

Results

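The genes described here are 10 genes of muscle cell fusion and adhesion, taken by symbol from the 27998 genes of the count tables: Mymx (listed under its older symbol Gm7325), Mymk (listed as Tmem8c), Cdh15, Jam2, Jam3, Kirrel, Dock1, Elmo1, Cd82 and Cd36. Interlimb somites of wild type C57BL/6 mouse embryos were dissected at E9.5 and at E11.5, the somites of 3 embryos were pooled at each stage, and cells released with trypsin were captured on a 10x Genomics Chromium chip. Each stage is 1 library, so embryo, stage and library cannot be told apart between stages, and cells are not replicates. Values below are counts of unique molecular identifiers (UMIs), tags that let each captured RNA molecule be counted once, with 95% intervals that cover counting error only, and no test was made. Cells were kept with 200 genes or more, fewer than 6500 genes and less than 15% mitochondrial UMIs, so that 9851 E9.5 cells and 9595 E11.5 cells remained, with median depths of 12462 and 12479 UMIs. The kept cells of both libraries shared 25 barcodes.

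Skeletal muscle fibres form when mononucleated myocytes, which differentiate under the control of MYOD1 and myogenin, adhere to each other and merge their membranes. Mymk, a membrane protein needed on both partners, drives mixing of the outer membrane leaflets, and Mymx, a micropeptide also called myomerger or minion, drives opening of the fusion pore. Cadherins and junctional adhesion molecules hold the partners together. Nephrin-like proteins do so in flies, but per the paper a conserved role of their vertebrate relatives in primary muscle formation is not apparent. The DOCK1 and ELMO1 proteins together activate the small GTPase Rac, which remodels the actin cortex at the contact site.

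Cells of the muscle lineage were placed in 6 exclusive classes by UMIs of genes that are not members. Progenitor cells held at least 2 UMIs of Pax3, Pax7 and Myf5 together and none of Myod1, Myog, Sox2 or Sox10. Myod1 cells held at least 2 Myod1 UMIs with fewer than 2 of Myog, Myog-low cells 2 to 19 Myog UMIs, and Myog-high cells at least 20 Myog UMIs, all with fewer than 5 of Acta1, the skeletal alpha-actin. Acta1-low cells held 5 to 24 Acta1 UMIs with at least 1 of Myog or Myod1, and Acta1-high cells at least 25 Acta1 UMIs. At E11.5 these classes held 416, 198, 224, 205, 82 and 137 cells in that order. Their median depth was 13633 UMIs in Acta1-low cells and between 15164 and 19342 in the other classes. Scrublet called 13.4% of the Acta1-low and 9.49% of the Acta1-high cells doublets, against 3.45% of all kept E11.5 cells. In the other classes it called between 4.39% (Myog-high) and 7.93% (progenitor). Levels are given as UMIs of a gene per 1000000 UMIs of the class (UPM), and they measure RNA relative to all RNA of the class. Red blood markers (6 genes) summed to 2795 UPM in Myog-low and 1475 UPM in Myog-high cells, against 49.9 to 57.2 UPM in the other 4 classes, and their part in the values of the members was not tested.

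Mymx, at chr17:45600971-45602102 on the minus strand (GENCODE M21, GRCm38, Ensembl gene ENSMUSG00000079471), was low in progenitor and Myod1 cells and was high in Myog-high and Acta1-low cells. Its coding sequence is shown because Mymx, with 1132 bases, is the shortest of the 10 genes and is listed under a symbol that does not name it. The start and stop codons are in capitals in this stretch at chr17:45601417-45601671, which encodes 84 residues and is held whole by 4 of 4 annotated transcripts.
Mymx: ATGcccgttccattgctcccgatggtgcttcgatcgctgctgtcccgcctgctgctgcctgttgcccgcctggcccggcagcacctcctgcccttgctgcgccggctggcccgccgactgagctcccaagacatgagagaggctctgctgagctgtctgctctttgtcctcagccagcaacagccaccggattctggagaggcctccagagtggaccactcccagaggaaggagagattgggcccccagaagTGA

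At E11.5 Mymx gave 6 UMIs in all progenitor cells (0.873 UPM) and 9 UMIs in all Myod1 cells (2.46 UPM). Its level was 25.6 UPM (21 to 30.9) in Myog-low cells and 672 UPM (646 to 698) in Myog-high cells. Acta1-low cells held 839 UPM (785 to 896), and Acta1-high cells 237 UPM (219 to 255). The intervals of the last 4 classes did not overlap, so the level was lower at both ends than in the middle. As a log2 ratio, all Myog cells were 7.10 (6.17 to 8.23) above Myod1 cells, and Acta1-high cells lay 1.83 below Acta1-low cells (log2 ratio -1.83, interval -1.97 to -1.68). At least 1 Mymx UMI was seen in 90.2% of Myog-high cells, 61.0% of Acta1-low cells and 60.6% of Acta1-high cells. The share was 0.443% in sclerotome-like cells, a mesenchymal class that should lack Mymx (median 12528 UMIs). Cells were also thinned to 5000 UMIs, which left out 30 of 82 Acta1-low cells as too shallow. Mymx was then seen in 77.5% of 204 Myog-high, 75% of 52 Acta1-low and 44.2% of 129 Acta1-high cells. The Acta1-low and Acta1-high shares were thus close with all UMIs but not at equal depth.

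Mymk, at chr2:27061636-27072179 on the minus strand (ENSMUSG00000009214), came up along the same classes but did not come down again. Its level was 5.24 UPM (3.67 to 7.26) in progenitor cells, 8.75 UPM (5.98 to 12.4) in Myod1 cells and 17 UPM (13.3 to 21.5) in Myog-low cells. It then reached 196 UPM (183 to 211) in Myog-high, 388 UPM (352 to 428) in Acta1-low and 529 UPM (503 to 556) in Acta1-high cells. The intervals of Myod1 cells overlapped those of progenitor cells, and each later class lay above the one before it. The log2 ratio of all Myog over Myod1 cells was 3.57 (3.06 to 4.12), and that of all Acta1 over all Myog cells was 2.24 (2.13 to 2.36). Of the Acta1-high cells, 98.5% held a Mymk UMI, against 0.64% of sclerotome-like cells.

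**Figure D1:**
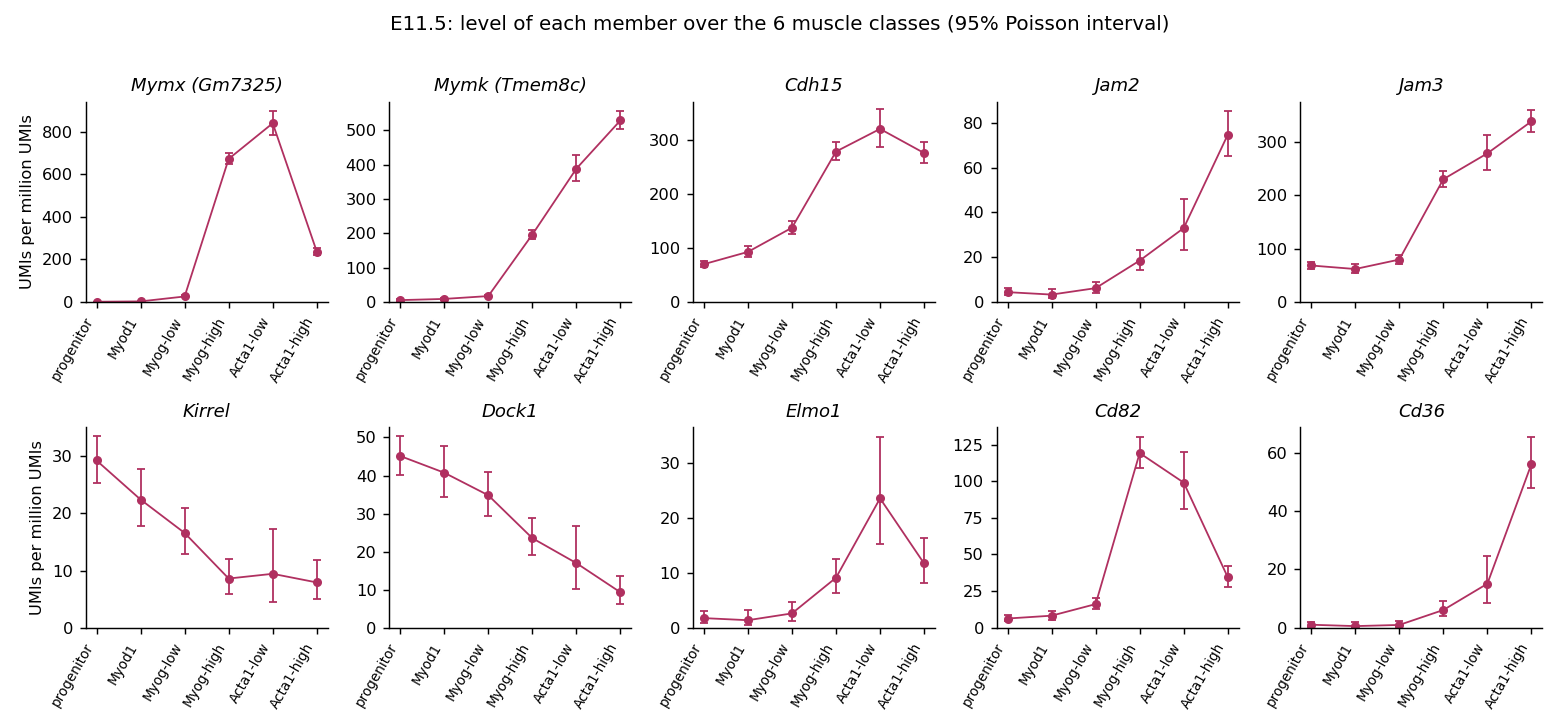
Level of each of the 10 genes in the 6 E11.5 muscle classes, in UMIs per 1000000 UMIs of the class on a linear axis from 0 in each panel; points are levels over all cells of a class and bars are 95% Poisson intervals. Mymx and Cd82 were highest in the middle classes, Mymk, Jam2, Jam3 and Cd36 in Acta1-high cells (for Jam3 not with Acta1 gates from 10 UMIs or gates per 10000 UMIs), and Kirrel and Dock1 in progenitor cells.

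In finer bins of the same cells, chosen after the class values were seen, Mymx was highest in the last Myog bin. The Acta1 bins were not split by Myog, so the bins do not place where Mymx turned. With fewer than 5 Acta1 UMIs, Mymx was at 7.68 UPM in cells with 2 to 4 Myog UMIs, 63.3 UPM with 10 to 19 and 268 UPM with 20 to 49. It was at 848 UPM (806 to 891) with 50 to 99 and 1141 UPM (1058 to 1228) with 100 or more. The interval of the bin of 50 to 99 Myog UMIs overlapped that of 5 to 24 Acta1 UMIs (785 to 896). Mymx was at 839 UPM in cells with 5 to 24 Acta1 UMIs and 434 UPM (396 to 475) with 25 to 99. It was at 137 UPM (112 to 166) with at least 100 and fewer than 200, and 105 UPM (86.5 to 126) with 200 or more. The last pair of intervals overlapped, while every other step along Acta1 was larger than the counting error. Mymk over the same Acta1 bins was at 388, 457, 474 and 641 UPM, so its level did not decrease in any of them. All Acta1 cells pooled join bins of high and low Mymx, and the sign of the pooled value depended on the gate. The log2 ratio of all Acta1 over all Myog cells was 0.23 (0.14 to 0.32), and it was -0.04 with the Acta1 gate set at 10 UMIs, -0.15 with the Myog gate set at 5 UMIs and -0.52 with gates set per 10000 UMIs of the cell.

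**Figure D2:**
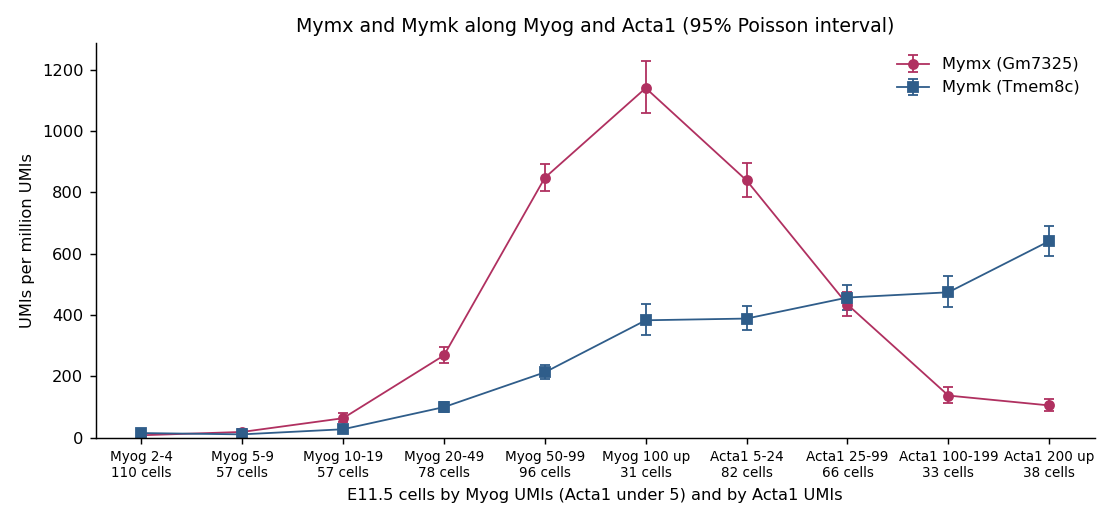
Mymx (circles) and Mymk (squares) at E11.5 in cells binned by Myog UMIs (with fewer than 5 Acta1 UMIs) and then by Acta1 UMIs, in UMIs per 1000000 UMIs with 95% Poisson intervals; the number of cells stands under each bin. Mymx peaked at 1141 in the 31 cells with 100 or more Myog UMIs and was at 105 in the 38 cells with 200 or more Acta1 UMIs, where Mymk was at 641.

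Most Myog-high, Acta1-low and Acta1-high cells held UMIs of both fusion genes. Of 205 Myog-high cells, 153 (74.6%, exact interval 68.1% to 80.4%) held UMIs of both, 32 (15.6%) of Mymx alone, 7 (3.41%) of Mymk alone and 13 of neither. Of 137 Acta1-high cells, 83 (60.6%) held both, 52 (38.0%, 29.8% to 46.6%) Mymk alone, 2 neither, and 0 Mymx alone, which allows a share of up to 2.19% by 3 counts of the total and 2.66% by the exact interval. Mymx alone was thus more frequent than Mymk alone in Myog-high cells and less frequent in Acta1-high cells. With all UMIs, more cells of the earlier classes held Mymk alone than Mymx alone. These were 26 against 3 progenitor, 25 against 5 Myod1 and 32 against 27 Myog-low cells. In Myog-low cells the order was reversed by thinning to 5000 UMIs, with 11 against 14 of 208 cells. It was also reversed by counting from 2 UMIs, with 11 against 21 cells. Progenitor and Myod1 cells kept the order in both settings. With every cell thinned to 5000 UMIs, and 8 shallower Acta1-high cells left out, 45.7% of 129 Acta1-high cells held Mymk alone and 2.33% Mymx alone, against 2.94% and 27.0% of 204 Myog-high cells. At that depth both were held by 50.5% (43.4% to 57.5%) of Myog-high, 67.3% (52.9% to 79.7%) of 52 Acta1-low and 41.9% (33.2% to 50.9%) of Acta1-high cells. The order of the first pair was thus the reverse of that with all UMIs (74.6% and 56.1%). Thinning left out 30 of 82 Acta1-low cells as too shallow, while 204 of 205 Myog-high cells were kept. The part of these shallow cells in the reversal was not tested. In Acta1-low cells 18.3% held Mymk alone and 20.7% neither, but the cells of these patterns had median depths of 2064 and 1288 UMIs, and at 5000 UMIs the shares were 9.62% and 15.4%. Few progenitor and Myod1 cells held both: 3 of 416 and 2 of 198. The Myod1 gate admits cells with 1 Myog UMI, and Myog was at 13.1 UPM in that class.

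**Figure D3:**
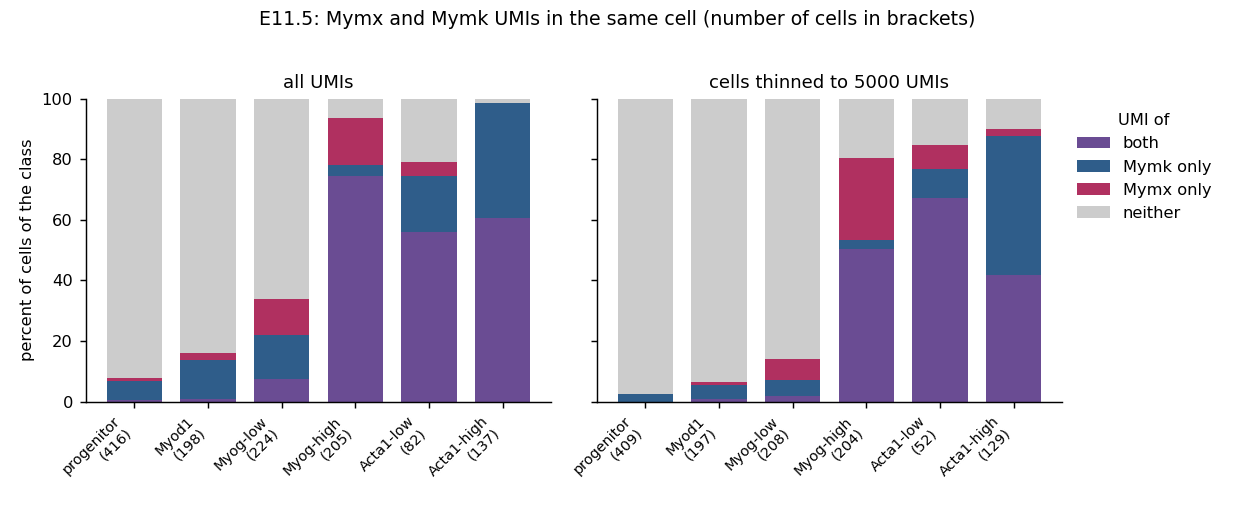
Stacked shares (percent of the cells of a class) of E11.5 cells with UMIs of both Mymx and Mymk, of Mymk only, of Mymx only or of neither, with all UMIs (left) and after thinning each cell to 5000 UMIs (right); the number of cells stands in brackets. Mymk-only cells made up 38.0% of Acta1-high cells with all UMIs and 45.7% after thinning.

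The Acta1-high cells with Mymk alone and those with both differed in other genes at nearly equal depth (medians of 19777 and 19283 UMIs). Acta1 itself was higher in the cells with Mymk alone, at 9882 against 6030 UPM, and Myog was lower, at 1323 against 2519 UPM. Among the members, Cd82 was at 11.6 UPM (6.00 to 20.3) in cells with Mymk alone and 47.2 UPM (37.9 to 58.2) in cells with both, a log2 ratio of -2.02 (-3.03 to -1.15). Cdh15 (log2 ratio -0.42, -0.64 to -0.20) and Jam3 (-0.37, -0.58 to -0.18) were also lower, by less. For Jam2, Kirrel, Dock1, Elmo1 and Cd36 the intervals of the log2 ratio held 0, and that of Cd36 ran from -0.66 to 0.32.

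Cdh15 encodes M-cadherin, the calcium-dependent adhesion protein of muscle precursors, and lies at chr8:122847966-122867397 on the plus strand (ENSMUSG00000031962). It was at no less than 21.8% of its own peak in every muscle class. The annotation places the read-through gene Gm20388 on the same strand over it, and the count tables list both. Its promoter is shown because this window, from the RefSeq (GRCm38.p6) promoters used here, which covered 6 of the 10 members, holds 3 matches to CANNTG, the E-box letters that MYOD1 and myogenin can bind. The matches are in capitals in the 250 bases before a RefSeq start, at chr8:122848124-122848373 on the plus strand. This stretch lies inside the GENCODE coordinates of the gene given above. The first bases of the matches lie 236, 135 and 32 bases before that RefSeq start.
Cdh15: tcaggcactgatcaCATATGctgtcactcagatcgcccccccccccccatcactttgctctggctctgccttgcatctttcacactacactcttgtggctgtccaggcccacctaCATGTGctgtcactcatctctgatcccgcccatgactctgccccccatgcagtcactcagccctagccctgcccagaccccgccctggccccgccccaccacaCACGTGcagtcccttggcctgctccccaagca
The letters read the same on both strands as CANNTG. Of 32851 promoter windows of the same length, 66.2% held at least 1 match and 12.2% held 3 or more. CAGCTG was in 13% of all windows and CAGGTG or its complement CACCTG in 17.2%, and the Cdh15 window held neither.

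Cdh15 was at 69.7 UPM (63.6 to 76.3) in progenitor cells, 92.4 UPM (82.8 to 103) in Myod1 cells and 137 UPM (126 to 149) in Myog-low cells. It was at 278 UPM (262 to 295) in Myog-high, 320 UPM (287 to 356) in Acta1-low and 275 UPM (256 to 295) in Acta1-high cells. The first 4 classes were each above the one before, while the Acta1-high and Myog-high classes differed by a log2 ratio of -0.01 (-0.15 to 0.12). Every Myog-high cell held a Cdh15 UMI. Among sclerotome-like cells 1.62% did, at 1.35 UPM.

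Jam2 and Jam3 encode junctional adhesion molecules, immunoglobulin-domain proteins that bind each other across cell contacts and that fast muscle precursors of fish need to fuse. Jam2 (chr16:84774123-84825928, plus strand) was at 4.37 UPM in progenitor, 3.28 UPM in Myod1 and 6.16 UPM in Myog-low cells, with overlapping intervals. It was at 18.5 UPM (14.5 to 23.2) in Myog-high, 33.0 UPM (23.0 to 45.9) in Acta1-low and 74.7 UPM (65.1 to 85.3) in Acta1-high cells, and was thus among the late members. Jam3 (chr9:27097384-27155421, minus strand) was at 68.4, 61.8 and 79.6 UPM in progenitor, Myod1 and Myog-low cells, at 230 UPM (216 to 246) in Myog-high, 279 UPM (248 to 313) in Acta1-low and 339 UPM (318 to 361) in Acta1-high cells. The step of Jam3 from Acta1-low to Acta1-high cells, a log2 ratio of 0.28 (0.09 to 0.47), was -0.067 with Acta1 gates from 10 UMIs and -0.018 with gates per 10000 UMIs. In finer bins Jam3 was at 373 UPM (338 to 412) with 25 to 99 Acta1 UMIs and 302 UPM (270 to 337) with 200 or more. All Acta1 cells over all Myog cells gave log2 ratios of 2.39 (2.05 to 2.74) for Jam2 and 1.08 (0.97 to 1.2) for Jam3.

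Kirrel (chr3:87078593-87174747, minus strand), a nephrin-like adhesion protein whose fly relatives Duf and Rst mark founder myoblasts, went the other way. It was at 29.3 UPM (25.4 to 33.6) in progenitor, 22.4 UPM in Myod1, 16.6 UPM in Myog-low and 8.6 UPM (5.96 to 12) in Myog-high cells. The Acta1-low and Acta1-high cells held 9.43 and 7.92 UPM, within the interval of Myog-high cells. All Myog over Myod1 cells gave a log2 ratio of -0.82 (-1.25 to -0.38). The 250 bases before its RefSeq start, at chr3:87174538-87174787, held no CANNTG. Most of this window lies inside the GENCODE coordinates of the gene. The window of Dock1, also highest in progenitor cells, held 1 match, 36 bases before its start. A link of these letters to the levels was not tested.

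Dock1 (chr7:134670654-135173639, plus strand), the Rac exchange factor that myoblasts need to fuse, was also highest in progenitor cells. Its levels were 45.1 UPM (40.2 to 50.4) in progenitor, 40.7 UPM in Myod1, 34.8 UPM in Myog-low, 23.5 UPM in Myog-high, 17 UPM in Acta1-low and 9.30 UPM (6.13 to 13.5) in Acta1-high cells. Of neighbouring classes, the intervals of Myog-low and Myog-high cells alone did not overlap (log2 ratio -0.56, -0.96 to -0.18), and the Acta1-high class lay below the Myog-high class with a log2 ratio of -1.34 (-2.02 to -0.71). Elmo1 (chr13:20090596-20608353, plus strand), its partner, did not follow it: it was at 1.75 UPM in progenitor and 1.37 UPM in Myod1 cells, 9.11 UPM (6.38 to 12.6) in Myog-high and 23.6 UPM (15.3 to 34.8) in Acta1-low cells. The Elmo1 peak rested on 25 UMIs in Acta1-low cells, and Acta1-high cells held 11.7 UPM (8.11 to 16.4), with an overlapping interval.

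Cd82 (chr2:93419111-93463140, minus strand), a tetraspanin and surface marker of human muscle stem cells, was highest in Myog-high cells. It was at 6.26 UPM in progenitor, 8.20 UPM in Myod1 and 16.1 UPM (12.5 to 20.4) in Myog-low cells. In Myog-high cells it was at 119 UPM (109 to 130), in Acta1-low cells at 99 UPM (81.0 to 120) and in Acta1-high cells at 34.4 UPM (28.0 to 41.9). Acta1-high over Acta1-low cells gave a log2 ratio of -1.52 (-1.93 to -1.11), and Cd82, Mymx and Elmo1 (-1.01, -1.80 to -0.20) were the 3 members more than 2-fold lower in this comparison, where 6.08% of 9378 genes were. Jam2 (1.18, 0.66 to 1.74) and Cd36 (1.90, 1.15 to 2.74) were the pair more than 2-fold higher, where 7.68% of these genes were. The RefSeq promoters used here hold 4 windows of Cd82. The window at chr2:93461852-93462101 on the minus strand holds 1 match to CANNTG, which reads CAGGTG and starts 179 bases before the start. Another of the 4 windows, at chr2:93452673-93452922, also holds 1 match that reads CAGGTG, 236 bases before its start, and the other two hold none. Both windows with a match lie inside the GENCODE coordinates of the gene given above, before RefSeq starts. Of these windows, the first is shown as the one whose match lies nearer to its start.
Cd82: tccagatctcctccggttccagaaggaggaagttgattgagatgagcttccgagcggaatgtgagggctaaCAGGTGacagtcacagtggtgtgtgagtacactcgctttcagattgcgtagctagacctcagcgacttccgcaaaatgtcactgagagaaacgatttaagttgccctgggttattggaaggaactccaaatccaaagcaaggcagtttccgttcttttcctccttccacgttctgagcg

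Cd36 (chr5:17781690-17888801, minus strand), a scavenger receptor and fatty acid transporter, reached 50% of its peak in Acta1-high cells and in no class before. It was at 1.02 UPM in progenitor, 0.547 UPM in Myod1 and 0.947 UPM in Myog-low cells, from 7, 2 and 4 UMIs. It was at 6.07 UPM (3.89 to 9.03) in Myog-high, 15.1 UPM (8.62 to 24.5) in Acta1-low and 56.1 UPM (47.8 to 65.4) in Acta1-high cells, and the last interval stood apart from the others. Endothelial cells and macrophages also express Cd36. In Acta1-high cells 5 of 8 endothelial markers were detected at 7.57 UPM in all, with Cldn5, Tek and Esam at 0, and 1 of 8 white blood markers at 4.82 UPM. The 119 Acta1-high cells without any endothelial marker UMI held 55.4 UPM of Cd36 and 73.8 UPM of Jam2.

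Ordered by the first class that reached 10% and then 50% of a member's own peak, 3 groups appeared. Cdh15 and Jam3 were above 10% of their peak already in progenitor cells and reached 50% in Myog-high cells. Cd82 and Elmo1 passed 10% in Myog-low cells, and Cd82 reached 50% in Myog-high, Elmo1 in Acta1-low cells. Elmo1 in Myog-low cells was at 11.05% of its peak from 11 UMIs. Its log2 ratio of Myog-low over Myod1 cells was 0.93 (-0.71 to 2.81), an interval that held 0. Mymx, at 3.05% of its peak in Myog-low cells, was above Myod1 cells by a log2 ratio of 3.38 (2.40 to 4.54). Mymx, Mymk, Jam2 and Cd36 passed 10% in Myog-high cells, Cd36 from 24 UMIs. Mymx was at 80.0% of its peak there, Mymk at 37.1%, Jam2 at 24.7% and Cd36 at 10.8%, and the 50% mark was passed in Myog-high cells by Mymx, in Acta1-low cells by Mymk and in Acta1-high cells by Jam2 and Cd36. With gates per 10000 UMIs Mymx peaked in Myog-high cells and Mymk reached 50% there. Kirrel and Dock1 had their peak in progenitor cells. Of the 416 E11.5 progenitor cells, 270 lay in the dermomyotome-like, 90 in a dermal mesenchyme-like and 19 in the sclerotome-like cluster. Sclerotome-like cells held more Kirrel and Dock1 than Myog and Acta1 cells. The part of such cells in the progenitor levels of Kirrel and Dock1 was not measured. In all, 8 of 10 members were more than 2-fold higher in all Myog than in Myod1 cells, where 5.07% of 11242 genes with at least 20 UMIs were. In all Acta1 over all Myog cells 5 members were more than 2-fold higher and 1 (Dock1) lower, where 11.3% and 11.2% of 11436 genes were. Median log2 ratios of the members were 1.98 and 0.78, and over all genes -0.07 and -0.13.

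Over 15 E11.5 classes, 6 of muscle and 9 of other tissues, the genes nearest to Mymx by Pearson's r of log2(UPM + 1) were Ovol3 (r = 0.995), Chrng (0.980), Actc1 (0.979), Atp2a1 (0.970) and Dio2 (0.970). Nearest to Mymk were Atp2a1 (0.994), Neb (0.988), Actc1 (0.988), Ttn (0.988) and Synpo2l (0.987). The classes share 1 library, and most of each r lies in the contrast of muscle with other classes. Of these, Ovol3, a zinc-finger gene, was at 16.2, 14.1 and 6.89 UPM in Myog-high, Acta1-low and Acta1-high cells, and Dio2, the deiodinase that activates thyroid hormone, at 17, 14.1 and 11.4 UPM, while Neb, a thin filament protein, was at 200, 703 and 1379 UPM.

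At E9.5 few cells had entered the programme. The same gates held 1153 progenitor, 0 Myod1, 24 Myog-low, 5 Myog-high, 4 Acta1-low and 5 Acta1-high cells, and 28 of the 29 Myog cells lay in the muscle-like cluster of their library. In Myog cells with fewer than 5 Acta1 UMIs, Mymx was at 37.7 UPM (24.2 to 56.1) at E9.5 and 338 UPM (325 to 351) at E11.5, a log2 ratio of -3.16 (-3.81 to -2.59). Mymk was at 18.8 UPM (9.74 to 32.9) against 104 UPM (96.9 to 111), a log2 ratio of -2.46 (-3.42 to -1.65). Jam3 (39.3 against 153 UPM) and Cd82 (12.6 against 65.9 UPM) were also lower, with log2 ratios of -1.96 (-2.59 to -1.39) and -2.39 (-3.61 to -1.40). Cdh15, at 118 against 205 UPM, was lower by less than 2-fold, and Cd36 was higher, at 14.1 against 3.42 UPM (log2 ratio 2.05, 0.78 to 3.17). In all 6 members were more than 2-fold lower at E9.5, among them Jam2 and Elmo1 from 1 UMI each, where 16.7% of 10715 genes were, and Cd36 was the 1 member more than 2-fold higher, where 5.92% were.

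The E9.5 cells held less Myog, at 525 against 1769 UPM, and Myod1 was at 9.42 against 621 UPM, with its 6 UMIs in a single cell. The classes with like levels of Myog held few UMIs of the fusion genes at E9.5. The 24 E9.5 and 224 E11.5 Myog-low cells held 352 and 341 UPM of Myog, and Mymx was at 6.11 UPM (from 3 UMIs) against 25.6 UPM, a log2 ratio of -2.07 (-4.37 to -0.48). Mymk was at 4.07 UPM (from 2 UMIs) against 17 UPM, with the same log2 ratio and an interval of -5.14 to -0.16. Both intervals hold the log2 ratios of all Myog cells (-3.16 and -2.46), of which the Myog-low cells are a part. With so few E9.5 UMIs the intervals are too wide to show whether the gap differed. Cdh15, at 116 (87.9 to 150) and 137 UPM, gave an interval of the log2 ratio that held 0, from -0.66 to 0.15.

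Single E9.5 cells with Acta1 already held both fusion genes. All 5 Acta1-high cells had 2 to 7 Mymx UMIs and 1 to 6 Mymk UMIs. Of the 5 Myog-high cells, 3 held 6 or 7 Mymx UMIs, 1 held 1 and 1 held 0, and all 5 held Mymk. Of the 4 Acta1-low cells 1 had 1 Mymx UMI and another 2 Mymk UMIs, and the shallowest of them had 714 UMIs in all. Jam2 was at 0 in all 10 Myog-high and Acta1-high cells, with upper limits of 25.4 and 27.9 UPM in these classes. The E11.5 levels were 18.5 and 74.7 UPM, so the 0 in Myog-high cells does not show a difference between stages.

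In progenitor cells the members differed between stages as well. Cdh15 was at 12.2 UPM (10.7 to 13.8) at E9.5 and 69.7 UPM at E11.5, a log2 ratio of -2.52 (-2.74 to -2.29), and Cd82 was at 0.434 against 6.26 UPM. Mymk gave 1 UMI in 1153 E9.5 progenitor cells and 36 in 416 E11.5 progenitor cells. Cd36 went the other way, at 16.6 UPM (14.9 to 18.5) against 1.02 UPM, a log2 ratio of 4.03 (2.97 to 5.35), and Jam3 differed by -0.08 (-0.23 to 0.07). Of the 9 members with at least 20 UMIs in both progenitor classes together, 4 (Mymk, Cdh15, Jam2 and Cd82) were more than 2-fold lower at E9.5, where 15.1% of 12303 genes were, and 2 (Elmo1 and Cd36) higher, where 6.04% were. Against the progenitor cells of its own stage, Cdh15 in Myog cells was higher at both stages, by a log2 ratio of 3.27 (2.88 to 3.65) in the E9.5 library and of 1.56 (1.41 to 1.71) in the E11.5 library. Of the E9.5 progenitor cells 1000 lay in the muscle-like cluster, where no E9.5 cluster was named dermomyotome-like, while at E11.5 270 lay in the dermomyotome-like and 90 in a dermal mesenchyme-like cluster. The part of this makeup in the stage values was not tested.

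**Figure D4:**
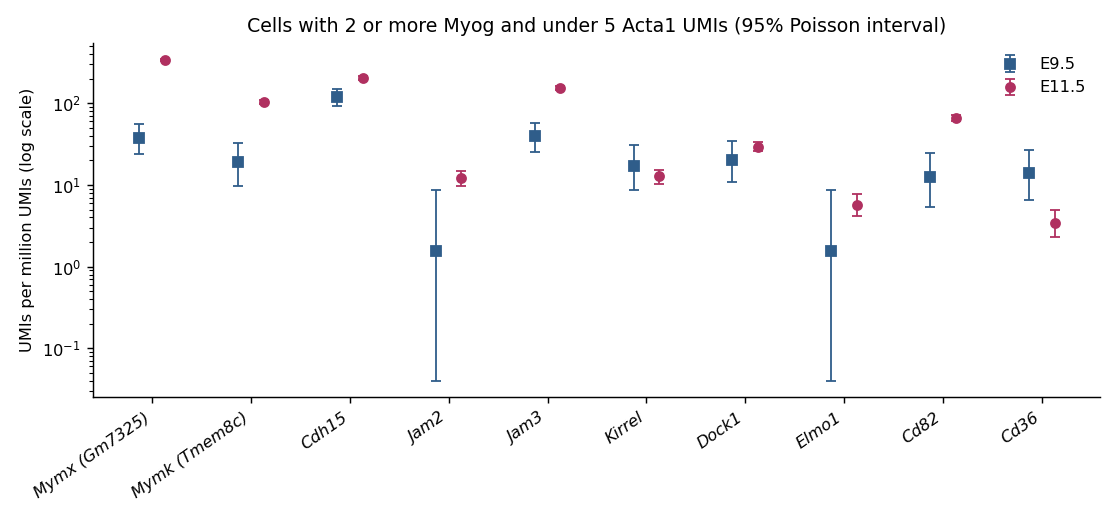
Level of the 10 genes in cells with at least 2 Myog and fewer than 5 Acta1 UMIs at E9.5 (29 cells, squares) and E11.5 (429 cells, circles), in UMIs per 1000000 UMIs on a log axis, with 95% Poisson intervals. Mymx was at 37.7 and 338, Cdh15 at 118 and 205, and Cd36 at 14.1 and 3.42.

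For levels outside muscle, cells in no muscle class were taken from clusters other than the muscle-like and dermomyotome-like ones. Both fusion genes were near 0 in every such cluster. The highest value of either was 0.896 UPM, from 1 Mymx UMI in 77 cells gated by white blood markers, and in the 2032 sclerotome-like E11.5 cells Mymx was at 0.374 UPM and Mymk at 0.486 UPM. The muscle classes, with 13.2% of the cells and 17.5% of the UMIs of the E11.5 library, held 99.1% of all Mymx UMIs and 97.6% of all Mymk UMIs of the library. For Cdh15 the share was 84.7%, for Cd36 76.6%, for Cd82 66.0%, for Jam2 44.9%, for Jam3 28.3%, for Elmo1 14.0%, for Dock1 11.3% and for Kirrel 10.2%. The last 3 shares were below the 17.5% share of all UMIs. At E9.5 nearly all cells of these classes were progenitor cells, and the classes held 15.5% of all UMIs. The share was 96.9% for Mymk (of 32 UMIs), 80.8% for Mymx (of 52 UMIs), 56% for Cdh15, 28.9% for Cd36 and 19.7% for Cd82. Dock1 (16.8%) and Kirrel (16.1%) were slightly above the share of all UMIs. Jam3 (14.1%), Elmo1 (9.96%) and Jam2 (6.77%) were below it.

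Jam2 was as high in neural tube-like cells (75.8 UPM, 64.4 to 88.8) as in Acta1-high cells (74.7 UPM), with overlapping intervals, and was at 19.5 UPM in neuron-like cells. Elmo1 was higher outside muscle, at 83.1 UPM (74.9 to 92.0) in neuron-like cells, 54.6 UPM (41.8 to 70.2) in cells gated by white blood markers and 59.995 UPM (43.2 to 81.1) in 39 cells gated by endothelial markers. Jam3 was broad, from 4.93 UPM in red blood-like cells to 132 UPM in neural tube-like cells. It was higher in Myog and Acta1 cells together than in sclerotome-like cells, by a log2 ratio of 1.26 (1.18 to 1.34).

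Kirrel and Dock1 were lower in Myog and Acta1 cells than in sclerotome-like cells. Progenitor cells, which are not part of this comparison, held 29.3 UPM of Kirrel and 45.1 UPM of Dock1. All Myog and Acta1 cells together over sclerotome-like cells gave log2 ratios of -1.55 (-1.82 to -1.29) for Kirrel and -1.39 (-1.58 to -1.21) for Dock1, and 7.43 (6.96 to 7.95) for Cdh15. Kirrel reached 56.9 UPM (50.8 to 63.6) in neural crest and glia-like and 48.6 UPM in lateral plate-like cells, and Dock1 68.6 UPM (63.1 to 74.5) in lateral plate-like cells. Cd82 outside muscle was at 12.9 UPM (5.88 to 24.4) in the endothelial gate and at 8.50 UPM in lateral plate-like cells. Cd36 was at 29.6 UPM (20.3 to 41.5) in the white blood gate at E11.5. In sclerotome-like cells it was at 18.6 UPM (17.1 to 20.2) at E9.5 and 0.448 UPM (0.232 to 0.783) at E11.5, beside the gap in progenitor cells. Endothelial-like cells held 2.04 UPM of Cd36 at E9.5, less than the 16.6 UPM of progenitor cells, in which 8 endothelial markers summed to 63.4 UPM.

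**Figure D5:**
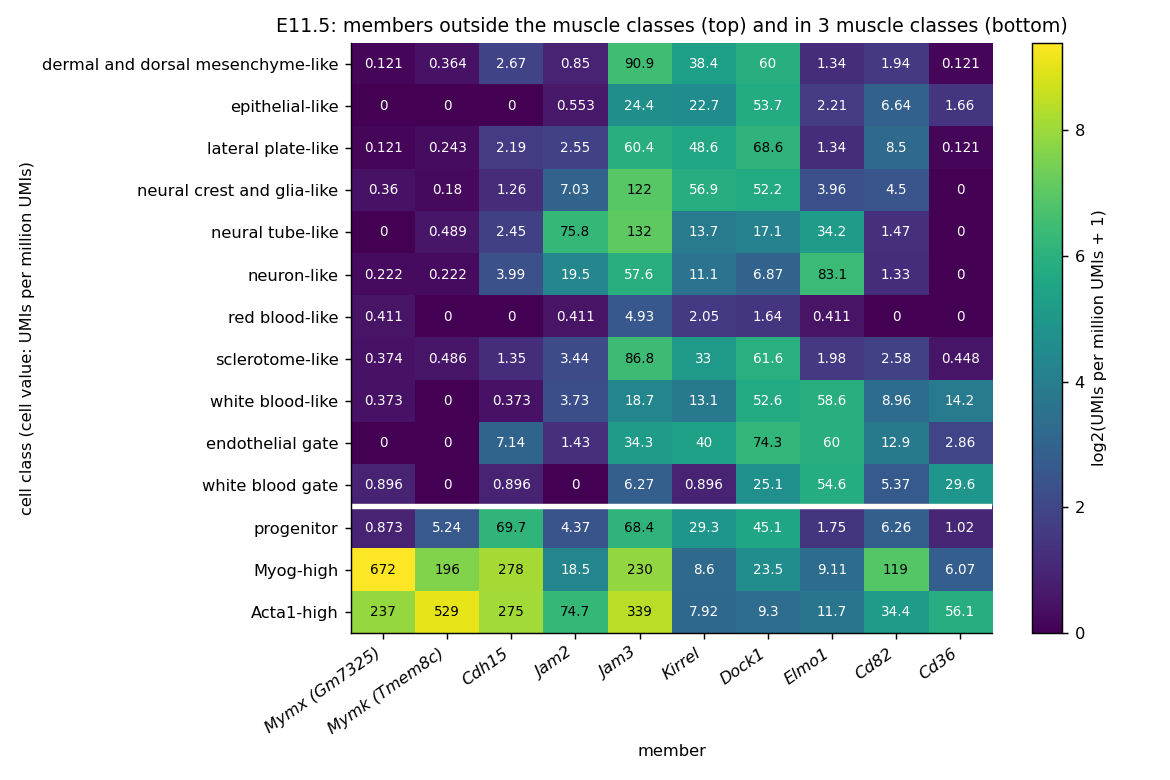
E11.5 level of the 10 genes in cell classes outside muscle (rows above the white line) and in 3 muscle classes (rows below it); numbers are UMIs per 1000000 UMIs and colours log2 of that value plus 1. Mymx and Mymk stand out in the muscle rows, Elmo1 is highest in neuron-like cells (83.1), and Jam2 in neural tube-like cells (75.8) is close to its Acta1-high level (74.7).

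Of 67 other genes of fusion and adhesion, 48 had at least 20 UMIs in Myod1 and Myog cells together. Between these classes 5 were more than 2-fold higher in all Myog cells and 3 lower, where 5.07% and 3.46% of all genes tested were, with a median log2 ratio of -0.05 against -0.07 over all genes. The named ones were Ckb, the brain creatine kinase, at a log2 ratio of 2.44 (2.23 to 2.65), the membrane repair gene Myof at 1.99 (0.93 to 3.26) and the adaptor gene Crkl at 1.19 (0.15 to 2.41), and, lower, the integrin ligand gene Vcam1 at -1.19 (-1.79 to -0.59) and the adhesion receptor gene Adgrb3 at -1.14 (-1.60 to -0.68). Between all Acta1 and all Myog cells 51 genes were compared, 9 were more than 2-fold higher and 6 lower, where 11.3% and 11.2% of all genes tested were, and the median was 0.01 against -0.13. Higher were Tmem182 (7.45, 5.58 to 10.51), a muscle membrane protein, Cav3 (6.34, 5.45 to 7.41), the muscle caveolin, Filip1 (3.05), Myof (2.27), Cdh11 (1.89) and Ckb (1.33). Lower were the cadherins Cdh4 (-1.45) and Cdh2 (-1.18), Adgrb3 (-1.41) and Crkl (-1.16). Beside M-cadherin, which differed by 0.48 (0.37 to 0.59), the cadherins thus took different directions along Acta1.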

How the data were processed

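Per the labels, each of 2 libraries pooled interlimb somites of 3 embryos, and Cell Ranger 3.0.1 with mm10 counted UMIs. The authors deposited these raw counts for 10121 E9.5 and 10167 E11.5 barcodes, without normalization and before their filters on cells, which were applied here (270 and 572 barcodes removed). The totals were 149368952 and 136655763 UMIs. With 1 library per stage there is no test, and intervals (exact Poisson, Clopper-Pearson for shares and for the ratio of 2 counts) cover counting error only. Gene symbols are the deposited ones, matched to GENCODE M21 by Ensembl ID for 10 of 10 genes.

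Each library was clustered alone in Seurat 5.3.0 (R 4.3.3) on 2000 variable features without the members, with the cell cycle regressed, 18 dimensions and Louvain resolution 0.4, and clusters were named from marker lists. Cells of the 6 muscle classes were left out of the other tissues. Of the E11.5 clusters 4, and 1 at E9.5, fitted no marker list and stayed unnamed. Endothelial and white blood gates were added after the data were seen, since 1 E11.5 cluster held both kinds. Scrublet, run from scanpy 1.11.5 (Python 3.11.15), gave doublet calls with an expected rate of 0.08 on genes in at least 3 cells, and these calls were left out in an alternative only. Its default settings called 0 doublets at E11.5 and were not used. Statistics used numpy 2.4.6, scipy 1.17.1 and pandas 2.3.3, plots matplotlib 3.10.9. The computation of the ratio was checked on simulated data for E11.5 all Myog over Myod1 cells (11242 genes), where 95.8% of intervals held the true value. The simulated counts were drawn from the Poisson model that the interval assumes. The check therefore does not cover spread between cells, embryos or libraries.

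The members, gates and lists were chosen with earlier results of these data known. Named beside the 10 members are gate genes, list genes past 2-fold with at least 50 UMIs (at most 10 per comparison, the larger first), and the 5 nearest genes of Mymx and Mymk. Genes compared between cells with Mymk alone and with both were chosen after seeing the data. Alternatives were other gates, gates per 10000 UMIs, removal of Scrublet calls, thinning to 5000 UMIs, the mean over cells, at least 1000 genes per cell, resolution 0.8, and for the list 100 UMIs or 1.5-fold. Leaving out sarcomere UMIs and keeping muscle-like and dermomyotome-like clusters only were added later. A fold threshold of 2 with at least 20 UMIs set the background shares.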

Additional observations from a re-analysis of the deposited data

Results flagged for a closer look

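Jam3 differed in direction between stages when Myog cells (fewer than 5 Acta1 UMIs) were set against the progenitor cells of the same library. The log2 ratio was -0.72 (-1.35 to -0.15) at E9.5, from 25 UMIs in 29 Myog cells, and 1.16 (1.00 to 1.31) at E11.5, from 1247 UMIs in 429 cells. The levels were 39.3 against 64.7 UPM at E9.5 and 153 against 68.4 UPM at E11.5. Myog-low cells made up 24 of the 29 Myog cells at E9.5 and 224 of the 429 at E11.5. In Myog-low cells alone Jam3 was at 36.6 UPM (21.7 to 57.9, 18 UMIs) at E9.5 and 79.6 UPM (71.3 to 88.5) at E11.5. The latter interval overlapped that of E11.5 progenitor cells (62.4 to 74.9), and E11.5 Myog-high cells held 230 UPM. The part of this makeup in the change of direction was not tested. With 1 library per stage the difference between the stages was not tested.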

How the results depend on the processing

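No paired analysis was possible because each stage is 1 library and the labels give no replicate numbers. Of the values that answer a comparison, 136 stayed within their counting interval (counts of genes within 1.5 times), and 29 moved and 3 changed sign. Of the other values 507 stayed, 54 moved and 3 changed sign. The causes were not tested.

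The log2 ratio of all Acta1 over all Myog cells for Mymx (Gm7325) was 0.23, and it was -0.042 with Acta1 gates from 10 UMIs, -0.15 with Myog gates from 5 UMIs, -0.52 with gates per 10000 UMIs, 0.10 thinned, 0.076 as a mean over cells and 0.33 without sarcomere UMIs. For Mymk (Tmem8c) it was 2.24, and 1.90, 1.78 and 1.87 with Myog gates from 5 UMIs, gates per 10000 UMIs and the mean over cells. The Acta1-high over Acta1-low ratio of Mymx was -1.83, and -2.0004 without Scrublet calls, -2.03 thinned and -1.49 as a mean over cells. That of Mymk was 0.45, and 0.22 with Acta1 gates from 10 UMIs. Jam3 (0.28) came to -0.067 with that gate and -0.018 with gates per 10000 UMIs, and Cdh15 (-0.22) to 0.021 as a mean over cells. Mymx in all Myog over Myod1 cells was 7.10, and 6.08 thinned. Mymx peaked in class 5 (Acta1-low), and in class 4 (Myog-high) with gates per 10000 UMIs and as a mean over cells. Mymk reached 50% of its peak in class 5, and in class 4 with gates per 10000 UMIs.

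Cells with Mymk alone were 18.3% of Acta1-low cells, and 9.62% thinned, 10.53% with at least 1000 genes and 8.54% counted from 2 UMIs. Of Acta1-high cells they were 38.0%, and 47.4% counted from 2 UMIs. Against sclerotome-like cells Kirrel (-1.55) was at -1.93 without Scrublet calls, -1.87 thinned and -1.92 as a mean over cells, and Dock1 (-1.39) at -1.61 thinned. At resolution 0.8 no E11.5 cluster was named sclerotome-like, so that setting gave no value. Of the other fusion and adhesion genes, 1 was higher and 1 lower in all Myog over Myod1 cells with at least 100 UMIs per gene (5 and 3 otherwise), and 3 lower in all Acta1 over all Myog cells (6 otherwise). Past 1.5-fold, 8 were higher and 8 lower, and 14 higher and 10 lower (9 and 6 past 2-fold).

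The number of cells limits the E9.5 values, where 38 cells fell in the Myog and Acta1 classes. The E11.5 levels of Elmo1, Cd36 and Jam2 in progenitor and Myod1 cells rest on 30 UMIs or fewer per class.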

Other observations

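Cell cycle genes were also compared between Acta1-high E11.5 cells with Mymk alone (52 cells) and with both fusion genes (83 cells). Mki67, a marker of cycling cells, was at 17.4 UPM (10.3 to 27.5) in cells with Mymk alone and 52.6 UPM (42.7 to 64.1) in cells with both, a log2 ratio of -1.59 (-2.41 to -0.86). These levels came from 18 and 98 Mki67 UMIs, in 11.5% and 20.5% of these cells. They thus rest on few cells, and the interval does not cover spread between cells. Top2a, also a marker of cycling cells, differed by less, at 45.5 against 68.7 UPM (-0.59, -1.11 to -0.10). The shares of cells with a Top2a UMI were nearly equal, at 17.3% and 18.1%. Cdkn1a, the cyclin-dependent kinase inhibitor of early differentiation, was at 665 against 1341 UPM, a log2 ratio of -1.01 (-1.13 to -0.89). Ccnd2, cyclin D2, was higher with Mymk alone, at 129 against 62.8 UPM (1.04, 0.67 to 1.41). In Acta1-low cells the level of Mki67 went the other way. It was at 139.8 UPM (74.4 to 239) in 15 cells with Mymk alone and 45.4 UPM (31.9 to 62.5) in 46 cells with both (1.62, 0.59 to 2.57). The median depths were 2064 and 16679 UMIs. A Mki67 UMI was seen in nearly equal shares of these cells, 13.33% and 13.04%. The 13 Mki67 UMIs with Mymk alone thus came from few cells, and the interval does not cover spread between cells. These genes were chosen after the data were seen, and the values are descriptions.

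In Myog-high cells the 32 cells with Mymx alone held less Myog than the 153 cells with both, at 2302 UPM (2186 to 2421) against 3773 UPM (3702 to 3844). The embryonic myosin gene Myh3 was at 7.70 UPM (2.5 to 18) in cells with Mymx alone and 295 UPM (275 to 316) in cells with both. Jam3 was at 145 UPM (117 to 177) against 269 UPM (250 to 288).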
